A study of Mus musculus with 6 samples.

Results

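Chemokines are small secreted proteins that draw cells along a gradient, and their receptors are G protein-coupled receptors on the cells that respond. The CC and CXC ligands are named for the spacing of their first cysteines, and atypical receptors (Ackr) bind ligands and remove them without the usual G protein signal. In muscle, chemokines made after injury bring in neutrophils and then monocytes, and stromal cells are among their sources. The genes described here were chosen by symbol: ligands named Ccl, Cxcl, Cx3cl or Xcl and receptors named Ccr, Cxcr, Cx3cr or Xcr, with Ackr2 and Ackr3. They came to 51 genes of 18194 measured, 33 ligands and 18 receptors, read by 68 probe sets on the Affymetrix chip MOE430A and 13 on MOE430B. The set was taken up with the signals of its genes already known, so the levels and counts below are descriptions.

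The RNA was that of myospheres, cell clusters in suspension, raised from muscle of the hind leg of male Balb/c mice after enrichment for the surface antigen Sca1. Cells were kept 4 days in Neurocult, a medium for neural stem cells, with LIF, EGF, B27 and an additive the labels spell bf6f, and were at passage 1. There were 3 replicates on MOE430A and 3 on MOE430B with no other condition, and the labels do not say whether replicates are separate cultures, so the spread between them may be technical. Values are MAS5 signals, a linear intensity per probe set, and SDs are over the 3 arrays of a chip, a number that limits the precision. Probe sets differ in how strongly they bind their transcript, so signals of different genes do not rank their mRNA levels.

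A probe set was taken as above background when, on all 3 arrays of its chip, it exceeded the 95th percentile of probe sets for genes of other tissues, such as odorant receptors and keratin-associated proteins. That limit lay at 784 to 822 on the MOE430A arrays and 2542 to 3237 on the MOE430B arrays. The probe sets present on both chips, none of them a chemokine or receptor, read lower on MOE430A for 99 of 100 (limma, adjusted p under 0.05), with a median log2 difference of -1.86 (MOE430A minus MOE430B), so each signal is read only against its own chip's limit. The chips were scanned on different days, and chip and scan day cannot be told apart. Pearson's r between replicates, over probe sets on the log2 scale, was 0.916 to 0.922 for MOE430A against 0.749 to 0.773 for MOE430B. The 3' end of Gapdh read 11.9 to 16.5 times its 5' end on MOE430A and 13.8 to 16.5 times on MOE430B. For Actb the ratio was 8.55 to 11.4 on MOE430A and 9.53 to 13.4 on MOE430B. Its bearing on probe sets farther from the 3' end was not tested. Of the marker lists, mesenchymal genes were above the limit for 8 of 8, leukocyte and macrophage genes for 5 of 13, endothelial genes for 2 of 6 and myogenic genes for 0 of 5, beside 36.2% of all genes, which is near the leukocyte and endothelial shares. Ly6a, the gene of the sort antigen, was not analysed here. In bulk RNA, fewer cells of a type and less RNA per cell cannot be told apart.

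Ligands were above the limit more often than receptors. Of the ligand genes 15 of 33 (45.5%) were above it, against 2 of 18 receptor genes (11.1%), beside 36.2% of all genes measured. The ligands above it were Cxcl1, Cxcl2, Cxcl3, Cxcl5, Cxcl12, Cxcl14, Cxcl16, Cxcl17, Ccl2, Ccl4, Ccl6, Ccl7, Ccl8, Ccl9 and Ccl11. By structural class these were 8 of 13 CXC ligands and 7 of 18 CC ligands, with neither Cx3cl1 nor Xcl1 among them. The receptors above it were Ackr3 and Ccr6. Genes with more probe sets pass such a rule more often, so the shares were also set out by their number. With 1 probe set, 9 of 20 ligands and 2 of 12 receptors were above the limit, beside 22.1% of all such genes. With 2 probe sets these were 4 of 9 and 0 of 3, beside 42.3%, and with 3 or more 2 of 4 and 0 of 3, beside 59.2%. The ligand share came near that of all genes with the array median as limit (57.6% beside 53.8%) and on MOE430A alone (43.8% beside 42.7%). The shares are descriptions and were not tested.

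**Figure D1:**
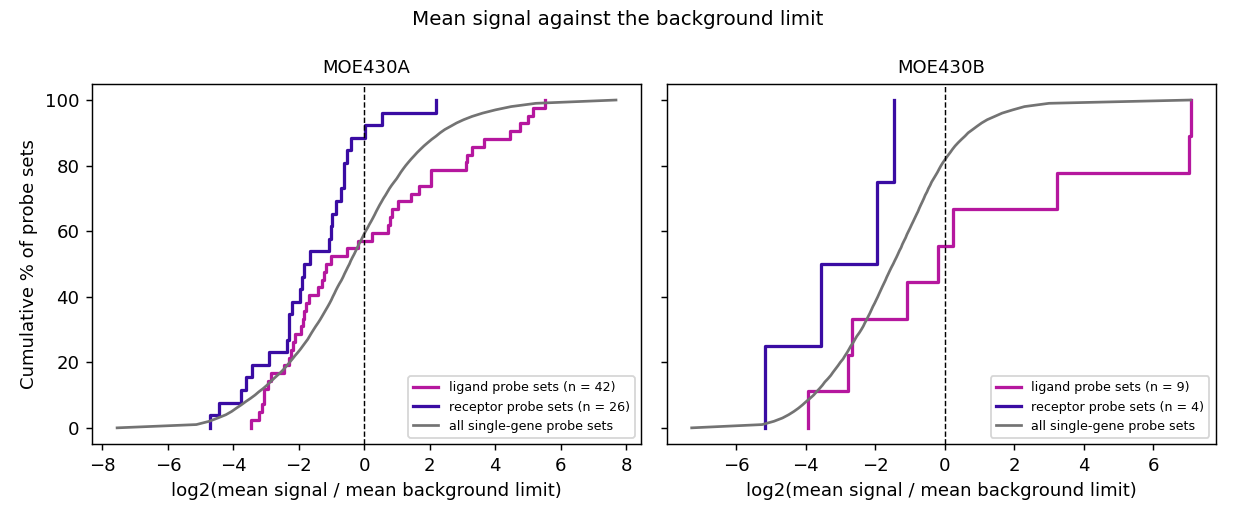
Cumulative share of probe sets (vertical axis, %) by the log2 of mean signal over the mean background limit (horizontal axis), for ligand, receptor and all single-gene probe sets on MOE430A (left) and MOE430B (right); the dashed line is the limit. On MOE430A the median was -1.10 for ligand, -1.74 for receptor and -0.45 for all probe sets, and the ligand curve runs to the right of the others at its upper end.

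On MOE430A, 17 of 42 ligand probe sets (40.5%) and 2 of 26 receptor probe sets (7.69%) were above the limit, beside 35.6% of all single-gene probe sets of that chip. On MOE430B these were 3 of 9 ligand and 0 of 4 receptor probe sets, beside 13.6%. The median of the log2 ratio of mean signal to limit was -1.10 for ligands, -1.74 for receptors and -0.45 for all probe sets on MOE430A, and -0.19, -2.75 and -1.48 for the same sets on MOE430B. The ligand median lay below that of the chip on MOE430A and above it on MOE430B, and the top ligand value on MOE430A was 5.51 on this log2 scale.

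The CXC ligands that attract neutrophils through Cxcr2 in the mouse were well above the limit. Cxcl1, also called KC, gave 31145, 38192 and 41119.9 on MOE430A in the order of replicates 1, 2 and 3, a mean 45.6 times the limit. Cxcl2, known as MIP-2, gave 26642, 27011 and 23531. Cxcl5, known as LIX, gave 17754, 12433 and 23001. The lowest array of each of these 3 genes was at least 15.9 times the limit of that array, with replicate 2 lowest for Cxcl5 and replicate 3 lowest for Cxcl2. Cxcl3, a close relative, was read on MOE430B alone, at 36345, 14579 and 30577 in the same replicate order, with replicate 2 lowest but still 4.98 times its limit. Cxcl15, another ligand of this gene neighbourhood, known from mouse lung, gave 115, 427 and 91.9 on MOE430A and 426, 776 and 174 on MOE430B and was below the limit on every array.

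Promoters are shown for Cxcl1, Cxcl2 and Cxcl3, which lie in one gene run and were above the limit together, and beside them for a CC ligand and a receptor above it. The sequences are the 150 bases before the annotated start, from RefSeq on GRCm38.p6, where 38 of the 51 genes had an entry. Capitals mark matches to the NF-kappaB consensus, a site of inflammatory transcription factors, and to TATAAA, the letters of the TATA box at any position, each searched on both strands. Both motifs were chosen after the sequences had been seen.
Cxcl1, chr5:90891095-90891244, plus strand: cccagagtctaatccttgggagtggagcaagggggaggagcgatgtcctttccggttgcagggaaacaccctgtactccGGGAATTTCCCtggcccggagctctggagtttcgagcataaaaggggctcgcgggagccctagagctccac
Cxcl2, chr5:90903749-90903898, plus strand: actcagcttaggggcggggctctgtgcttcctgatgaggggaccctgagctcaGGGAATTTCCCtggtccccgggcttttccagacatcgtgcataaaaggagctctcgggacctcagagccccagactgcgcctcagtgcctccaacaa
Cxcl3, chr5:90785951-90786100, plus strand: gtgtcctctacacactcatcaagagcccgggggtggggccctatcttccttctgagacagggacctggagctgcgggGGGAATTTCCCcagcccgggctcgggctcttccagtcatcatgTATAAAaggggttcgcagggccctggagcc
Ccl8, chr11:82115035-82115184, plus strand: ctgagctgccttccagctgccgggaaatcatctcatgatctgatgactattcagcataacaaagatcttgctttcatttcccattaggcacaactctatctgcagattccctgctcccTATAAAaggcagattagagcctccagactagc
Ackr3, chr1:90203830-90203979, plus strand: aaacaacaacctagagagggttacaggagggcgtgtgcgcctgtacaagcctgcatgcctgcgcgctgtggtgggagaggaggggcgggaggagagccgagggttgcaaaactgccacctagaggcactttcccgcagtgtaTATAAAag
The same letters, GGGAATTTCCC, began 71 bases before the start of Cxcl1, 97 before that of Cxcl2 and 73 before that of Cxcl3, and fit the NF-kappaB consensus on both strands with overlap. In windows of this length a match to that consensus was present for 742 of 27025 genes (2.75%). Among the genes described here it stood in 4 of 8 ligands above the limit that had an entry (with Ccl9), in 2 of 15 ligands not above it (Ccl20 and Cxcl10) and in 2 of 15 receptors (Ackr2 and Ccr6). TATAAA was present for 8.89% of all genes, and in 3 of 8, 5 of 15 and 2 of 15 of the same sets, and it did not overlap the other motif in the sequences shown. It began 30 bases before the start of Cxcl3, 32 before that of Ccl8 and only 8 before that of Ackr3. A match is a description of these letters and was not tested as a binding site.

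Of the CC run that starts with Ccl2 on chromosome 11, Ccl2, Ccl7, Ccl8 and Ccl11 were above the limit. Ccl2, or MCP-1, the main ligand of Ccr2, gave 26488.5, 31836 and 28267 on MOE430A. Ccl7, or MCP-3, which also binds Ccr2, gave 9799.9, 10419 and 10150.1. Ccl7 was among the steadier members, with a highest array 1.06 times the lowest, against 1.20 times for Ccl2. Ccl8, a ligand of Ccr8 in the mouse, gave 21359, 29064 and 14885. Ccl11, the eosinophil attractant eotaxin, gave 8088, 9001 and 3865. Both were lowest in replicate 3 and highest in replicate 2. Their neighbour Ccl12, a further Ccr2 ligand of the mouse, gave 382, 536 and 111, below the limit on every array.

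In the other CC run, Ccl4, Ccl6 and Ccl9 were above the limit and Ccl3 and Ccl5 were not. Ccl6 and Ccl9, ligands of Ccr1 described in the mouse, were highest in replicate 3 and lowest in replicate 1. Ccl6 gave 1883, 3008 and 5084.5 by one probe set and 1502, 2308 and 2755 by another. The probe sets of Ccl6 followed the same order of replicates. Ccl9 gave 1953, 2396 and 3333, while its other probe set, at 351, 330.0 and 389, was below the limit on every array. Ccl4, or MIP-1 beta, gave 1246, 1194 and 1753, above the limit on all 3 arrays. Its relative Ccl3, or MIP-1 alpha, gave 108, 553 and 1006, above it in replicate 3 alone. Ccl5, also called RANTES, gave 99.4, 74.2 and 102, far below it.

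Also above the limit were Cxcl12, Cxcl14, Cxcl16 and Cxcl17. Cxcl12, or SDF-1, which holds progenitors in their niche through Cxcr4, gave 9128, 6823 and 7545 by the probe set with the higher signal and 1324, 1406 and 1612 by another on MOE430A. Its MOE430B probe set gave 1045, 638 and 2397, below that chip's limit on every array. Cxcl14, a ligand of epithelial and stromal cells, gave 8037, 5713 and 7701 by one probe set and 3337, 3608 and 2928 by another, both above the limit but in a different order of replicates. Cxcl16, a ligand made as a membrane protein and shed by Adam10, gave 1266, 1147 and 1606, and 423, 532 and 241 by a second probe set below the limit. Cxcl17, known from mucosal tissue, gave 1664, 1632 and 1669, with a highest array only 1.02 times the lowest.

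**Figure D2:**
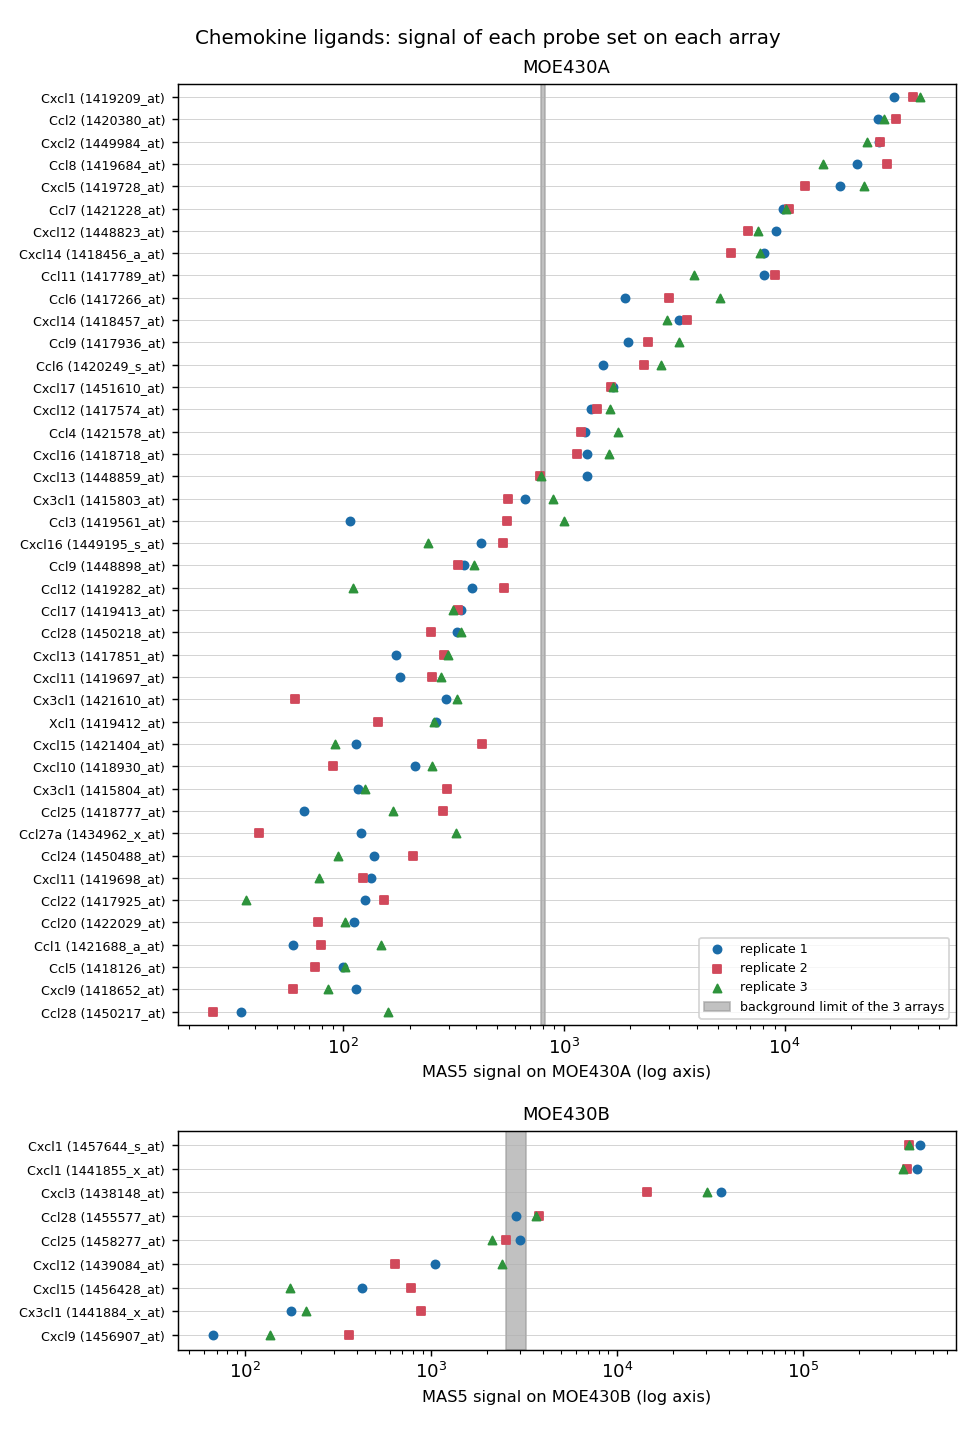
MAS5 signal (log axis) of each ligand probe set on MOE430A (upper panel) and MOE430B (lower panel), with 1 point per array; the grey band spans the background limits of the 3 arrays. On MOE430A, 17 of 42 probe sets have all 3 points to the right of the band's limits, from Cxcl1 down to Cxcl16.

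Of the ligands, 18 of 33 were not above the limit. Cxcl9, Cxcl10 and Cxcl11 are the interferon-induced ligands of Cxcr3. Cxcl9 gave 114, 59.3 and 85.2 on MOE430A and 67.0, 361 and 136 on MOE430B. Cxcl10 gave 212, 90.0 and 253, and the brighter Cxcl11 probe set 181, 253 and 277. All were below the limit on every array. So were Ccl1, Ccl17, Ccl20, Ccl22, Ccl24, Ccl25, Ccl27a and Xcl1, and with Ccl5, Ccl12 and Cxcl15 they made 14 ligands, at up to 0.926 of the limit. Above it on some arrays were 4 ligands: Ccl3, Ccl28, Cx3cl1 and Cxcl13. Cxcl13, which organises B cell follicles, gave 1267, 776 and 787, above the limit in replicate 1. Cx3cl1, or fractalkine, gave 664, 555 and 888 by its brightest probe set, above it in replicate 3. Ccl28, a mucosal ligand of Ccr10, gave 2852, 3796 and 3682 on MOE430B, above it in replicates 2 and 3. These values, with Cxcr3 below, were the nearest outside the limit on MOE430A and, for Ccl28, on MOE430B. Next on MOE430B was Ccl25, a thymic and gut ligand of Ccr9, at 2997, 2515 and 2129. Nearest inside it were Ccl4 and Cxcl16 with the receptor Ccr6 on MOE430A, and Cxcl3 and Cxcl1 on MOE430B.

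Ackr3, an atypical receptor, gave 3830.0, 2935 and 4358 on MOE430A, a mean 4.59 times the limit and lowest in replicate 2. It takes up Cxcl12 and Cxcl11, of which Cxcl12 was above the limit and Cxcl11 was not. Ccr6, the receptor of Ccl20, gave 1151, 1114 and 1255, a mean 1.45 times the limit, while Ccl20 gave 112, 77.0 and 102. Each of these 2 receptors was read by 1 probe set. That of Ackr3 ends in _s_at, a kind whose probes can match transcripts of several genes, and that of Ccr6 in _a_at, a kind that matches alternative transcripts of 1 gene. Without _s_at and _x_at probe sets 1 receptor, Ccr6, and 15 ligands were above the limit, a setting chosen after seeing the data.

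Several ligands above the limit had a signalling receptor below it. Cxcr2, the receptor of Cxcl1, Cxcl2, Cxcl3 and Cxcl5, gave 163, 143 and 163. Cxcr4, the signalling receptor of Cxcl12, gave 479, 342 and 415. Ccr2, the receptor of Ccl2 and Ccl7, gave 532, 838 and 893 on MOE430B, and its 3 MOE430A probe sets lay between 17.0 and 267. All arrays of these 3 receptors were below the limit. Ccr1, the receptor of Ccl6 and Ccl9, gave 413, 531 and 739 by its brighter probe set, under the limit on every array. Ccr3, the receptor of Ccl11, gave 253, 21.8 and 44.3. Ccr8, a receptor of Ccl1 and mouse Ccl8, gave 208, 176 and 270.0. Both were under the limit on every array.

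Of the receptors not yet described, none was above the limit on all 3 arrays of its chip. Cxcr3, found on activated T cells, gave 872, 706 and 859 and was above it in replicates 1 and 3. Xcr1, a receptor of dendritic cells, gave 658, 821 and 361 and was above it in replicate 2. None of the following receptors was above it on any array. Cxcr5, the B cell receptor of Cxcl13, gave 440.2, 390.4 and 376. Cxcr6, the receptor of Cxcl16, gave 585, 321 and 661 by its brighter probe set. Cx3cr1, the fractalkine receptor of monocytes, gave 381, 528 and 660.1 by its brighter probe set. Differences between arrays below the limit are not read as differences between replicates. Ccr4, which binds Ccl17 and Ccl22, gave 179.9, 528 and 611. Ccr7, which guides cells to lymph nodes, gave 64.6, 19.99 and 94.4. Ccr10, the receptor of Ccl28, gave 703, 100.1 and 345. Ccr9, the receptor of Ccl25, lay between 31.0 and 286 over 3 probe sets on MOE430A. Ackr2, an atypical receptor that degrades CC ligands, gave 477, 408 and 587 by its brighter probe set on MOE430A and 841, 1663 and 692 on MOE430B, where it was the nearest receptor outside the limit. In all, 14 of the 18 receptors were below the limit on every array, at up to 0.900 of it. Cxcr1 was not analysed here, and values under the limit do not show that a gene was silent.

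**Figure D3:**
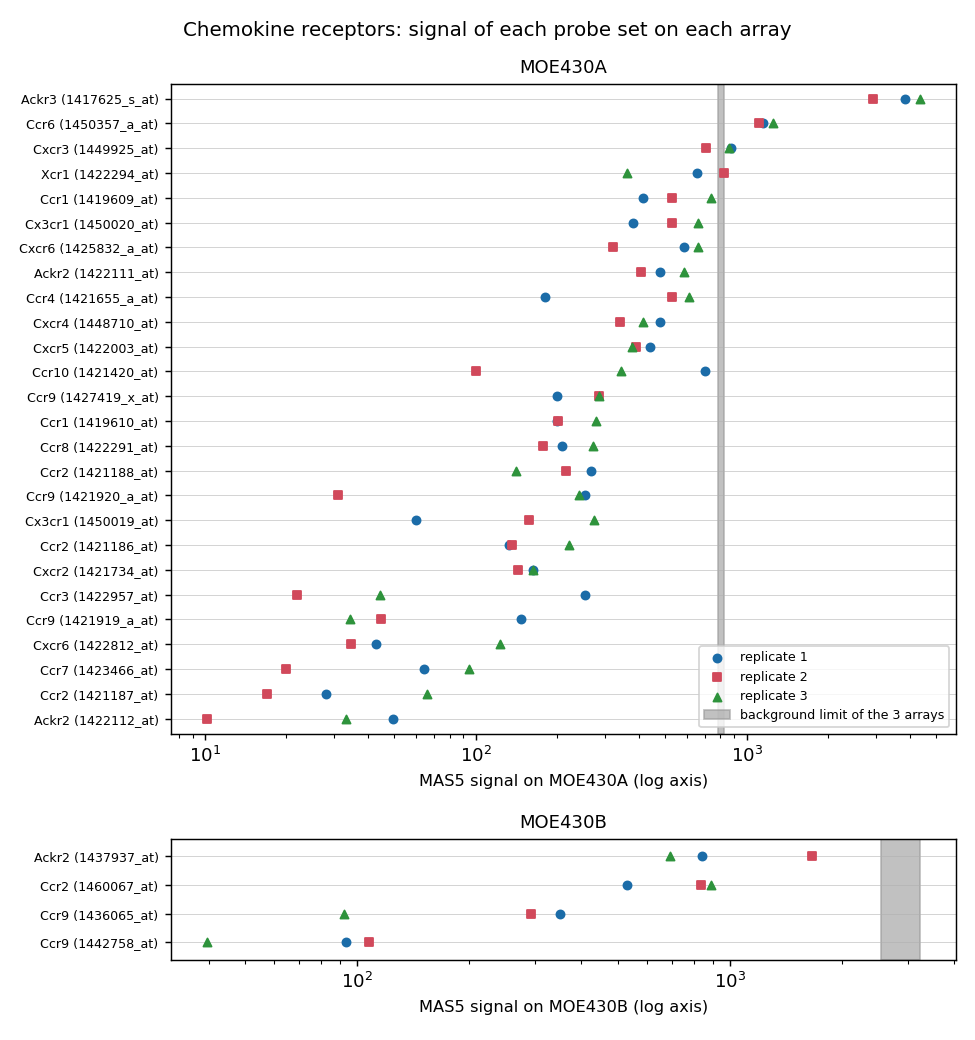
MAS5 signal (log axis) of each receptor probe set on MOE430A (upper panel) and MOE430B (lower panel), with 1 point per array; the grey band spans the background limits of the 3 arrays. Ackr3 and Ccr6 are the 2 of 26 probe sets on MOE430A with all points above the limits, and none of 4 is on MOE430B.

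Many chemokine genes lie beside each other in the genome. In the order of protein-coding genes in GRCm38.p6, 5 runs of 3 or more adjacent measured members were found, counting Pf4 and Ppbp, which are CXC ligands under other names. On chromosome 11, 4 of 6 genes from Ccl2 to Ccl1 were above the limit, and 3 of 5 from Ccl5 to Ccl4, beside 36.2% of all genes. On chromosome 5, 5 of 7 from Cxcl5 to Cxcl2 were, Pf4 included. The run of Ccl22, Cx3cl1 and Ccl17 on chromosome 8 had 0 of 3 above it, and the receptor run of Cxcr6, Xcr1 and Ccr1 on chromosome 9 also had 0 of 3. The runs are short, and these counts rest on the genes described above and add no further measurement.

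**Figure D4:**
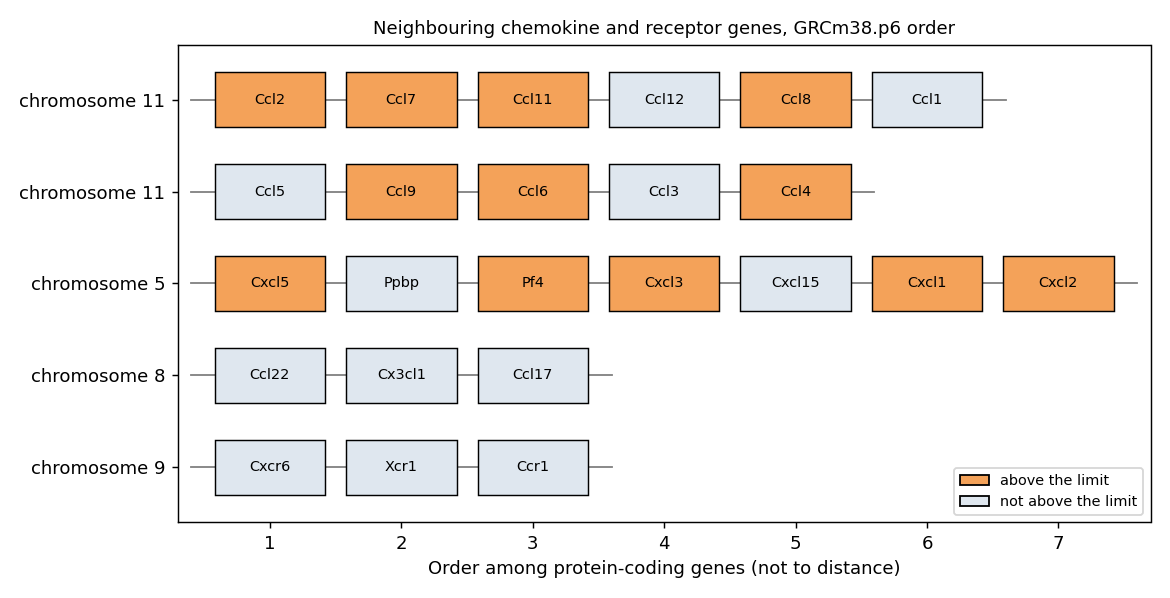
Runs of 3 or more adjacent measured chemokine or receptor genes, drawn in their order among protein-coding genes and not to distance, with 1 row per run. Orange boxes mark genes above the limit: 4 of 6 and 3 of 5 in the chromosome 11 rows, 5 of 7 in the chromosome 5 row, and none in the other rows.

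Chemokine-related genes outside the symbol rule were above the limit for 6 of 11, beside 36.2% of all genes: Pf4, Ackr1, Mif, Cd74, Rarres2 and Cklf. Pf4, or platelet factor 4, which macrophages also make, gave 9787, 11583 and 11387. Its neighbour Ppbp, a platelet ligand, gave 460.2, 377 and 498, below the limit. Rarres2, the precursor of the attractant chemerin, gave 13385, 14458 and 7627 by its brightest probe set, lowest in replicate 3 as Ccl8 and Ccl11 were. Mif, a cytokine that can bind Cxcr2 and Cxcr4, gave 28887, 28971 and 24367. Ackr1, an atypical receptor of endothelial and red cells, gave 1321, 1469 and 1891, highest in replicate 3.

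Of the 10 genes with probe sets on both chips, Cxcl1 was above the limit on both, Cxcl12 on MOE430A alone and the other 8 on neither. Cxcl1 gave 36819 ± 5127 on MOE430A, and 390610.0 ± 32604 and 375176 ± 34960.2 on MOE430B (SD, n = 3 for each), by an _s_at and an _x_at probe set of shared sequence. The ratio of mean signal to the chip's limit was 45.6 on MOE430A, and 135 and 129 on MOE430B. These are different probe sets, so the ratios do not compare the chips. Replicate 1 was the lowest for Cxcl1 on MOE430A and the highest on MOE430B.

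The replicates were compared with limma (moderated F-test, chip as covariate) on the 622 genes that passed the mean limit of MOE430A and also that of MOE430B. Of these 7 (1.13%) differed at an adjusted p under 0.05, and 0 did without replicate 2 (40 at an unadjusted p under 0.05). The fit takes same-numbered arrays of the 2 chips as one replicate, and the arrays themselves bear that out only in part. Cxcl1, the only member in this fit, did not pass (limma, adjusted p = 0.962, and 0.725 to 0.997 under the alternatives tried). Its replicate means over both chips lay within 0.086 on the log2 scale because the chips ran opposite ways for replicate 1, while its arrays spanned 0.40 on MOE430A and 0.21 and 0.26 on MOE430B. The test therefore does not show that Cxcl1 was steady between replicates.

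The other members did not pass the limits of both chips and were outside that fit, so their differences between replicates are values with no test. For probe sets above the limit on MOE430A, the highest array was a median of 1.40 times the lowest over 19 member probe sets and 1.28 times over all 7253. Ccl6 had the widest spread of the members above the limit on that chip, 2.70-fold, and 16 of the 7253 probe sets (0.221%) were wider. Its other probe set spanned 1.83-fold in the same order of replicates. Ccl11 spanned 2.33-fold, with 37 wider (0.510%), Ccl8 1.95-fold, with 161 wider (2.22%), and Cxcl5 1.85-fold, with 258 wider (3.56%).

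Replicate 3 was the highest for 11 of the 19 member probe sets (57.9%), beside 33.7% of all above the limit on MOE430A. Over all member probe sets of that chip, above the limit or not, it was the highest for 21 of 42 ligand and 15 of 26 receptor probe sets. It was also the highest for 11 of the 17 MOE430A probe sets of the leukocyte list. For signalling genes behind chemokine receptors this was 16 of 33, and for the mesenchymal list 2 of 13. For the chemokine-related genes outside the symbol rule it was 4 of 19. It was 2 of 22 for genes that cut, shed or present chemokines, 2 of 7 for endothelial and 2 of 6 for myogenic genes. These counts include probe sets below the limit, and the same share over all probe sets of the chip was not taken. The median signal of the MOE430A arrays was 595, 547 and 609.5, highest in replicate 3. The summed signal of the leukocyte list was 18598 in replicate 1, 21622 in replicate 2 and 23157 in replicate 3. Lyz2, a lysozyme of macrophages, gave 1482, 2066 and 2763, in the same order as Ccl6 and Ccl9. Tyrobp, a myeloid adaptor, gave 706, 1016 and 1331 in that order but was below the limit in replicate 1. Of the other markers above the limit, Adgre1 gave 1346.8, 1347.3 and 1599, nearly equal in replicates 1 and 2 and highest in replicate 3. By their brightest probe sets Csf1r gave 2322, 3415 and 3039, Cd14 4428, 4031 and 5169, and Laptm5 1193, 2804 and 1512. These 3 did not follow the order of Ccl6 and Ccl9. Ptprc, the pan-leukocyte antigen, gave 519, 881 and 485, not in the order of Ccl6 and Ccl9, but was above the limit in replicate 2 alone. Itgam, an integrin of myeloid cells, gave 19.8, 48.8 and 194, below the limit on every array, and no marker of the list read 0. The part of leukocytes in these differences was not tested.

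Cxcl3 spanned 2.49-fold on MOE430B, with 24 of 1991 probe sets wider (1.21%), and was highest in replicate 1 like both Cxcl1 probe sets there. Replicate 1 was the highest for 56.1% of all probe sets above the limit on that chip and replicate 2 the lowest for 48.2%. The scanner settings give the MOE430B array of replicate 1 another chip lot than those of replicates 2 and 3. The part of the array in the Cxcl3 values was not tested.

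**Figure D5:**
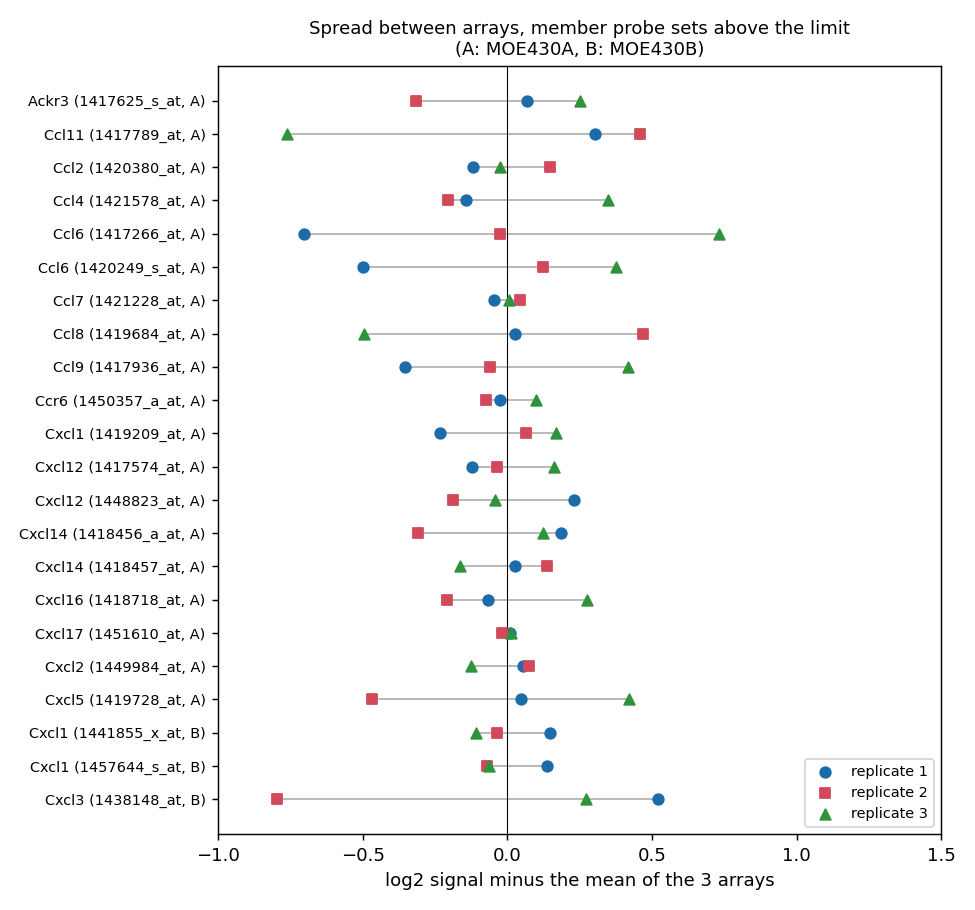
Log2 signal of each member probe set above the limit, minus the mean of its 3 arrays (horizontal axis), with 1 point per replicate and a line over the range. Ccl6, Ccl9 and Ccl4 have replicate 3 at the upper end, Ccl8 and Ccl11 have it at the lower end, and Ccl7 and Cxcl17 span 1.06-fold and 1.02-fold.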

How the data were processed

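Total RNA was read on 6 Affymetrix arrays, replicates 1 to 3 on MOE430A and on MOE430B. The deposited values are MAS5 signal intensity, per the submitters' processing notes (its version is not given in the sources used here), and every array had been scaled to a mean of about 1500 after trimming 2% at each end, as the values show. Scanner images were not used here. Probe sets with 1 gene symbol in the given platform annotation were kept (20393 on MOE430A, 14674 on MOE430B) and symbols updated through a RefSeq table of GRCm38.p6, which held 20364 and 14499 of them. The background limit was the 95th percentile of 151 reference probe sets on MOE430A and 44 on MOE430B (genes of olfactory, vomeronasal and taste receptors, hair keratins' partners, lens crystallins, defensins, protamines, testis kinases and placental prolactins), of which 4 and 2 passed the rule. Detection counts were set beside the share of all genes with no test.

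Differences were fitted on log2 signal with limma 3.58.1 in R 4.3.3, with an intensity trend and Benjamini-Hochberg adjustment over all features in the fit, and tested on simulated data. Each gene entered the replicate test as its mean log2 signal per chip. The rest used pandas 2.3.3, numpy 2.4.6 and, for plots, matplotlib 3.10.9 under Python 3.11.15. Named were members above the limit, all receptors, the 3 members nearest the limit on each side per chip, and members in the replicate fit. Other ligands were named after their values were seen. The members and lists were chosen with earlier results of these data known. No protein sequences were used here.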

Additional observations from a re-analysis of the deposited data

How the results depend on the processing

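Over 12 alternatives for the limit, the probe sets, the normalization, the chips and the replicates, the number of ligand genes above the limit stayed between 13 and 19, and 12 of the 15 were above it in all of them, while the share of all genes moved between 27.0% and 53.8%. The ligand share was 57.6% beside 53.8% with the array median as limit, and 43.8% beside 42.7% on MOE430A alone. Of the other 3 ligands, Ccl4 and Cxcl16 were lost with the 99th percentile as limit and Cxcl3 could not be read on MOE430A alone. Receptor genes above the limit numbered 1 with the 99th percentile, where Ccr6 was lost, 0 without _s_at, _x_at and _a_at probe sets, which leaves Ackr3 and Ccr6 no probe set, and 1 without _s_at and _x_at probe sets, a setting chosen after seeing the data. Member probe sets above it on MOE430B numbered 5 with the array median as limit and 1 under each of these exclusions by probe set ending. Leaving out each replicate in turn gave 15 to 16 ligand genes, 2 to 3 receptor genes, 19 to 20 probe sets on MOE430A and 3 to 4 on MOE430B, the gains being Ccl28 without replicate 1 and Cxcr3 without replicate 2. With receptor families as the only reference, MOE430B had 15 reference probe sets and took the MOE430A limit moved by the shared probe sets.

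Probe sets that differed between MOE430A and MOE430B (limma) numbered 99 with a replicate block, 97 to 98 without each replicate, and 0 after centring every array on these shared probe sets (7 at an unadjusted p under 0.05), as that step removes the difference in scale. The replicate test and the replicate block take same-numbered arrays of the 2 chips as one replicate. Deviations of same-numbered arrays correlated at only -0.015, 0.44 and 0.10 for replicates 1, 2 and 3. Not every array correlated best with its own number. Replicate 2 had the highest signal for 18 of 18 hybridisation controls on both chips. Genes that differed between replicates (limma) numbered 4 with array median centring, 0 with quantile normalization (39 unadjusted), 0 with all probe sets and no limit (92 unadjusted) and 0 with no intensity trend (56 unadjusted). Without each replicate in turn they numbered 0 to 7, with 0 without replicate 2 (40 unadjusted), 4 without replicate 3 and 7 without replicate 1. For all but the centring on shared probe sets, the cause was not tested. The limit was higher and less even on MOE430B, but the shared probe sets also read higher there. Their median log2 difference was -1.86 (MOE430A minus MOE430B), so the higher number is not in itself a stricter limit. Weakly expressed genes can be missed on either chip.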

Other observations

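Proteins that cut, shed or present chemokines were above the limit for 9 of 10 listed genes, beside 36.2% of all genes. Mmp2, a gelatinase that trims Cxcl12 and Ccl7, gave 86512, 88137 and 83958 for replicates 1, 2 and 3 of MOE430A, and Mmp9, the other gelatinase, gave 4469, 3448 and 3503. Adam10 and Adam17, which shed the membrane ligands Cxcl16 and Cx3cl1, gave 5585, 5116 and 4829.7 and 3998, 4373 and 4155 by their brightest probe sets, with at least 1 further probe set of each below the limit. The heparan sulfate genes Ext1, Sdc1, Sdc4 and Gpc1, whose products hold chemokines at the cell surface, were all above it. Dpp4, a peptidase that clips many chemokines, was the exception. Its brighter probe set gave 52.3, 56.8 and 49.6 on MOE430A and 1909, 1740 and 244 on MOE430B, below the limit on every array.

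Genes that act behind chemokine receptors were above the limit for 10 of 21, beside 36.2% of all genes and 59.2% of genes with 3 or more probe sets. Gnai2, the inhibitory G protein these receptors use, gave 13804, 14147.5 and 13378, and Rgs2, a brake on G protein signalling, 5437, 5837 and 6980.0. Among genes known from leukocytes, Dock2, which drives their migration, gave 445, 116 and 62.1 on MOE430A, and Rgs1, another brake, 330.3, 283 and 473, while Rac2, a GTPase of blood cells, gave 1184, 879.5 and 1151 and was above it. The arrestins Arrb1 and Arrb2, which turn receptors off, gave 499, 664 and 459.7 and 367, 544 and 305 by their brightest probe sets, below the limit.

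The MOE430A probe sets annotated to several genes include 4 that name Ccl19, Ccl21 or Ccl27 genes. None was above the limit on any array, and the brightest reached 0.479 of it.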
